A study of Homo sapiens with 6 samples.

Results

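Interferon-stimulated genes were examined in PC-9 cells, a human lung adenocarcinoma line with an activating EGFR mutation, after knockdown (KD) of the splicing factor RBM10. The 39 genes were taken by symbol from a list of well-known interferon-stimulated genes, and all 39 were present among the 26334 gene symbols of the quantification. Of these, 34 passed a filter on low counts, as did 14217 genes in all. The 5 genes that did not pass were IFI27, IFI44L, RSAD2, XAF1 and TRIM22.

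PC-9 cells grown in RPMI with 10% FBS carried shScr, a scrambled hairpin that served as the control, or shRBM10#1 or shRBM10#2, a pair of shRNAs against RBM10. Each condition had 2 RNA-seq libraries, so there were 6 libraries in all. The labels name no drug or interferon treatment for any of them. Every condition carried a hairpin. The paper's methods name parental cells beside the KD cells for the RNA-seq, while its results name shScr cells. The labels, which were followed here, name shScr as the only control. All 6 libraries came from a single cell line, and the labels do not say whether replicates were separate cultures.

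Type I interferons bind a cell-surface receptor and activate a transcription factor complex that holds STAT2 and IRF9 and binds the interferon-stimulated response element (ISRE) in the promoters of a large set of antiviral genes. Cells also start this program themselves when RIG-I (DDX58) or MDA5 (IFIH1) binds double-stranded or otherwise unusual RNA in the cytosol. Hairpin RNAs are a known trigger of the same sensors, so the genes can serve as a check for an RNA-sensing response to an shRNA. Each shRNA was therefore compared with shScr on its own, and the shRNAs were compared with each other. The RBM10 shRNAs differed from shScr in both hairpin and RBM10 level, so responses to the hairpin and to RBM10 loss cannot be told apart. A response common to all hairpins, shScr included, would not show.

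Promoters of 5 of the genes that the results turn on are shown so that matches to the core of the ISRE can be seen. The sequences are the 160 bases before the gene start in RefSeq (GRCh38.p14), written 5′ to 3′ on the strand of the gene, and capitals mark matches on either strand to the ISRE core, GAAA and again GAAA after any 2 bases. IFI6, OAS1, SAMD9 and HERC5 were called in at least 1 comparison, and ISG15 was called in none. OAS1 is shown as a called member without a match to this pattern. Its sequence does hold GAAA and again GAAA after 1 base (gaaacgaaa), which the pattern does not take in.
IFI6 (chr1:27672193-27672352, minus strand): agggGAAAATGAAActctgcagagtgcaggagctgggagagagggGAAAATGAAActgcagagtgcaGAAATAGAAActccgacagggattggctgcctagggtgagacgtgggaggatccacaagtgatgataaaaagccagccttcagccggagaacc
OAS1 (chr12:112906802-112906961, plus strand): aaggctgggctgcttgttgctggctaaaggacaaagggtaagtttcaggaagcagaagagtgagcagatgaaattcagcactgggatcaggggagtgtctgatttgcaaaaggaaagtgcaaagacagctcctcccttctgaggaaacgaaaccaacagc
SAMD9 (chr7:93117980-93118139, minus strand): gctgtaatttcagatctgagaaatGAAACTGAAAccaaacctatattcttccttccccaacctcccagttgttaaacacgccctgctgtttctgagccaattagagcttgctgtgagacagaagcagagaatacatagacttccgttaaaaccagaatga
HERC5 (chr4:88456959-88457118, plus strand): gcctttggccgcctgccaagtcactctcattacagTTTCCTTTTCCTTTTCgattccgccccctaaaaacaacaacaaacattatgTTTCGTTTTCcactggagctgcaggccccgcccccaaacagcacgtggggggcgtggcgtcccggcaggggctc
ISG15 (chr1:1013337-1013496, plus strand): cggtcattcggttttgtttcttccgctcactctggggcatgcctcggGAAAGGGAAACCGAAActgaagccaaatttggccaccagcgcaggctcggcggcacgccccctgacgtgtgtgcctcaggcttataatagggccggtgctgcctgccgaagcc

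In windows of 250 bases before to 50 bases after the gene start, 30 of the 39 genes had an entry. The genes without an entry were IFIT2, MX2, OAS2, OASL, IRF7, DHX58, IFITM2, USP18 and TRIM22. The ISRE core was present in 21 of the 30 (70.0%), compared with 4.38% of the 27305 genes in the table and 3.72% of the 11194 genes that were also tested here. The gamma-activated site core TTCNNNGAA, searched on both strands, was present in 9 of the 30 (30.0%), compared with 9.38% of all genes in the table. The motifs may overlap each other, and a match describes the letters in the window and not a bound site. Among the members called in any comparison, IFI6 and HERC5 held 3 ISRE matches each and ISG20 and SAMD9 held 1 each. OAS1, STAT2, SAMD9L and HERC6 held none. The ISRE core was present in 4 of 8 called members with an entry and in 14 of 18 tested members called in no comparison. The pattern misses GAAA runs with another spacing, as in OAS1, so these counts describe the pattern only.

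Library totals ranged from 31953729 to 37557507 expected counts, and levels are given as CPM (counts scaled to library size with TMM factors) or, between genes, as TPM (the share of each transcript after correction for length). The targeted gene RBM10 was at 83.2 and 86.2 CPM in shScr, 59.8 and 56.4 CPM in shRBM10#1, and 27.2 and 26.9 CPM in shRBM10#2. Its log2 fold change (FC) was −0.54 ± 0.07 (SE, FDR = 2.28e-04) in shRBM10#1 and −1.65 ± 0.07 (FDR = 5.1e-08) in shRBM10#2, each relative to shScr. FDR is the p-value of edgeR's quasi-likelihood F test after Benjamini-Hochberg adjustment over the 14217 genes, and a gene was called when it was below 0.05. The mean fragment length was 231 nt in shScr replicate 2 and 265 to 281 nt in the other 5 libraries. All 6 epithelial marker genes were expressed in every library, with a summed level of 20250 to 25690 TPM. Of 7 leukocyte markers, 6 were below 1 TPM in every library (the exception was CD68, at 76.8 to 117 TPM), and all 3 plasmacytoid dendritic cell markers were below 1 TPM. The 5 fibroblast markers summed to 2.02 to 2.94 TPM, nearly all of it COL1A1. The 3 endothelial markers summed to 6.02 and 7.65 TPM in shScr, 10.3 and 12.7 TPM in shRBM10#1, and 7.52 and 7.30 TPM in shRBM10#2, with VWF below 1 TPM throughout, and their part in the results was not tested. In bulk libraries, fewer expressing cells and less RNA per cell cannot be told apart.

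In shScr cells, the interferon-stimulated genes covered a wide range of basal levels. IFITM3, which blocks the entry of enveloped viruses, was at 553 and 500 TPM, and it made up 63.6% to 68.8% of the summed TPM of the 39 genes in the 6 libraries. A further 10 members were between 10 and 100 TPM and 17 between 1 and 10 TPM. The other 11 were below 1 TPM, and 5 of them were below 0.1 TPM. Next in level were EIF2AK2, with 31.3 and 42.5 TPM, and IFI35, with 30.4 and 33.4 TPM, which differed by less than the spread between the libraries. ISG15, a ubiquitin-like protein that is attached to other proteins, followed at 31.1 and 30.0 TPM.

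The 3 most abundant members were not called in any comparison of all 6 libraries. IFITM3 was at 151 and 132 CPM in shScr, 109 and 151 CPM in shRBM10#1, and 136 and 129 CPM in shRBM10#2. The log2 FC of IFITM3 was −0.12 ± 0.12 (FDR = 0.533) in shRBM10#1 and −0.10 ± 0.12 (FDR = 0.591) in shRBM10#2. Without shRBM10#1 replicate 2, the log2 FC of IFITM3 was −0.37 in the 1 shRBM10#1 library left. The log2 FC of shRBM10#2 relative to that library was 0.28. IFI35, an interferon-induced leucine zipper protein, was at 20.8 and 20.6 CPM in shScr, 21.2 and 23.5 CPM in shRBM10#1, and 21.4 and 22.5 CPM in shRBM10#2. All 4 KD libraries of IFI35 were above both shScr libraries, by a log2 FC of 0.11 ± 0.09 (FDR = 0.418) and 0.08 ± 0.09 (FDR = 0.505), which did not pass the test.

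shRBM10#1 replicate 2 stood apart from shRBM10#1 replicate 1 in these genes. It was the higher of the pair for 29 of the 34 members tested (85.3%), compared with 50.2% of all genes tested, and the median difference over the members was 0.30 on the log2 scale. The difference was above 0.5 for 8 members (23.5%), compared with 4.97% of all genes, and above 1 for 5 members, namely IFI44, IFIT1, IFITM1, IFI6 and MX2. In shScr and in shRBM10#2, replicate 2 was the higher for 19 and 15 of the 34 members, with medians of 0.11 and −0.01. Among 37 further interferon-stimulated genes outside the list, replicate 2 of shRBM10#1 was the higher for 22, with a median of 0.05. Relative to the shScr mean, the median member was at −0.23 in shRBM10#1 replicate 1 and at 0.07 in replicate 2, and between −0.06 and 0.05 in the other 4 libraries. Results for shRBM10#1 are therefore given also without each of its libraries where that changed a call. Such a fit leaves 1 library in that condition, so any FDR from it takes the spread from the other conditions. A call gained in it is not read as a result.

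**Figure D1:**
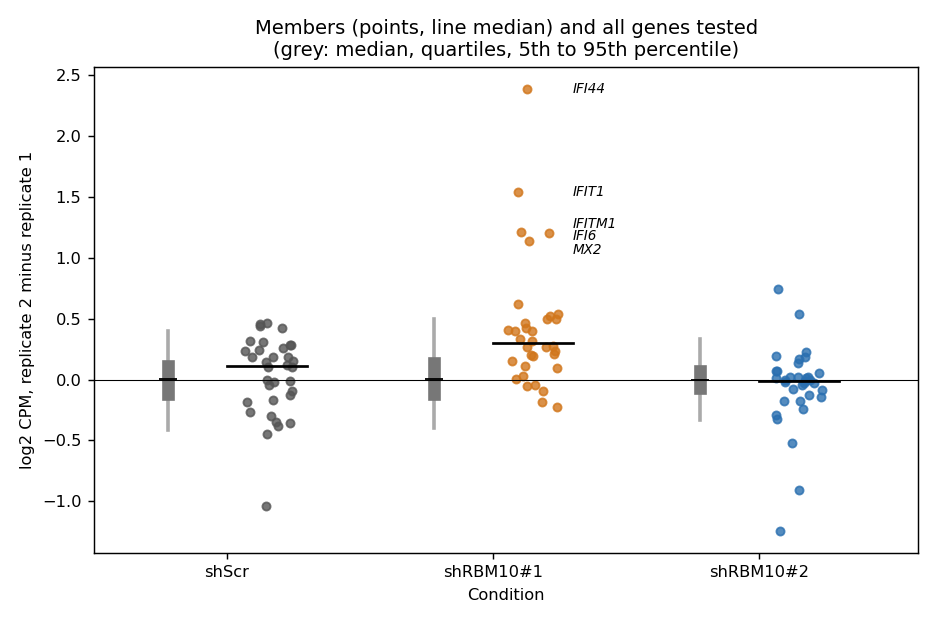
Difference between the replicates of each condition (vertical axis, log2 CPM of replicate 2 minus replicate 1) for the 34 members tested (points, with a black line at the median) and for all 14217 genes (grey, median, quartiles and 5th to 95th percentile). In shRBM10#1 the members lie mostly above 0, with a median of 0.30 and IFI44, IFIT1, IFITM1, IFI6 and MX2 above 1, and in shScr and shRBM10#2 they lie on both sides of 0.

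With shRBM10#1, 7 of the 34 members tested were called relative to shScr (20.6%), compared with 14.0% of all genes. IFI6, OAS1 and OAS2 were higher (8.82% of members, 7.13% of all genes called higher) and IFITM2, ISG20, SAMD9 and SAMD9L were lower (11.8%, against 6.91% of all genes). A fit without either shRBM10#1 library leaves 1 library in that condition, so calls from such fits are not counted here. By library, 8 of the 34 members were above the shScr mean in shRBM10#1 replicate 1 and 21 in replicate 2. The median log2 value of all genes relative to that mean was 0.008 and 0.004. With shRBM10#2, 5 members were called (14.7%), compared with 25.9% of all genes. OAS2 and STAT2 were higher (5.88%, against 12.0%) and HERC6, IFITM2 and SAMD9 were lower (8.82%, against 13.9%). OAS2, counted as higher with each shRNA, passed the low-count filter only through the KD libraries, so these shares are not independent of the filter. Members were thus called in both directions with each shRNA, and with shRBM10#2 less often than genes at large, a difference that was not tested. The median log2 FC of the 34 members was −0.06 in shRBM10#1 and −0.01 in shRBM10#2, and that of all genes was 0.01 in both. Both comparisons used the same shScr libraries, so their values are given side by side and not as repeats of each other.

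With the additional criterion of an absolute log2 FC above 1, 4 members were called in shRBM10#1 (IFI6, OAS2, ISG20 and SAMD9L), compared with 1.88% of all genes. OAS2 alone was called in shRBM10#2, compared with 1.30% of all genes. OAS2 passed the low-count filter only through the KD libraries, so its calls here are not independent of the filter. At an unadjusted p below 0.05, 9 members passed in shRBM10#1 and 8 in shRBM10#2, beside 28.5% and 37.9% of all genes. Both libraries were above both shScr libraries for 6 members in shRBM10#1 and 9 in shRBM10#2, compared with 27.9% and 33.6% of all genes. Both libraries were below for 9 members in each, compared with 25.7% and 33.0% of all genes.

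**Figure D2:**
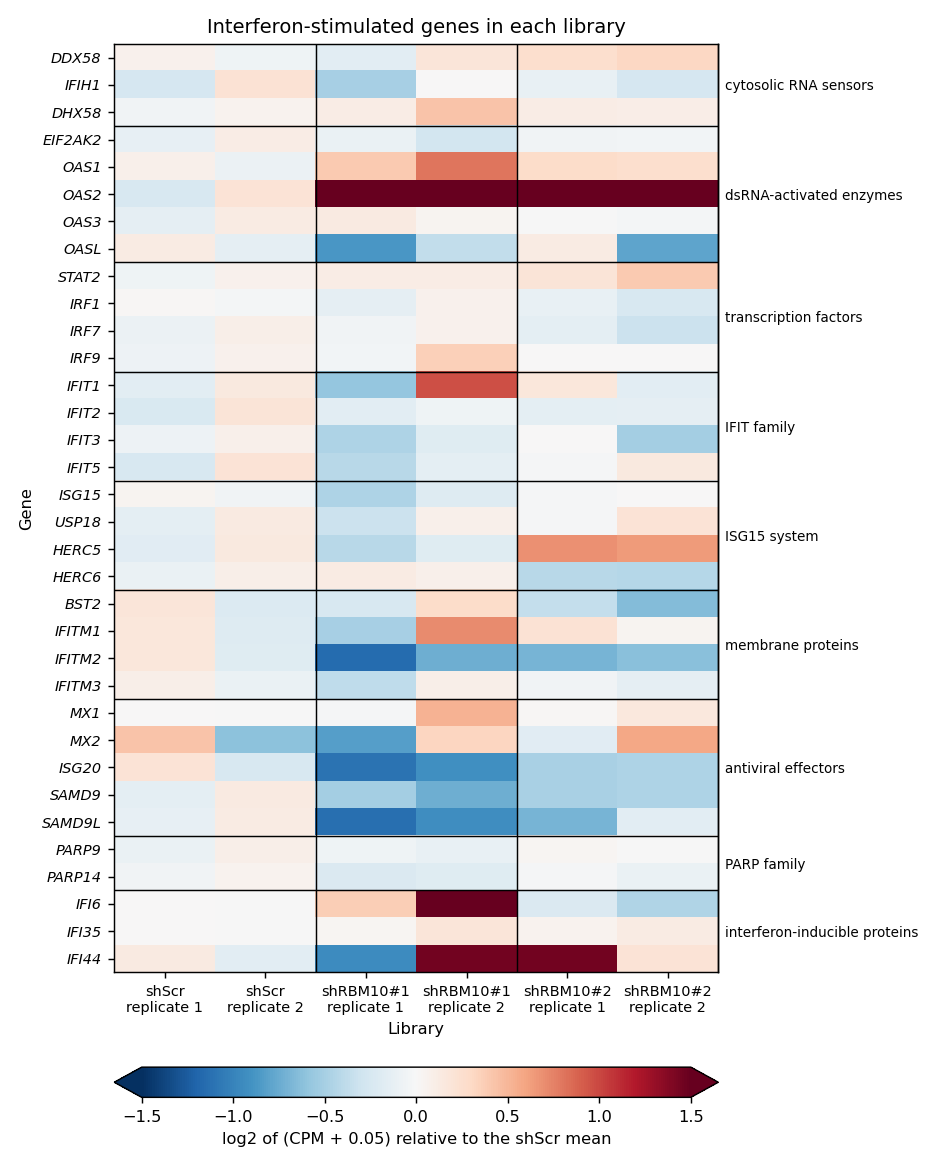
Level of the 34 members tested (rows, grouped by role) in each of the 6 libraries (columns), as the log2 of CPM plus 0.05 relative to the shScr mean (colour scale from −1.5 to 1.5, stronger values in the end colours). OAS2 is above shScr in all 4 KD libraries and SAMD9, SAMD9L, ISG20 and IFITM2 below it, and IFI6, IFIT1 and IFITM1 are highest in shRBM10#1 replicate 2.

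The cytosolic RNA sensors were called in no comparison of all 6 libraries. DDX58 encodes RIG-I, which recognizes RNA with a 5′ triphosphate. Its level was 5.17 and 4.74 CPM in shScr, 4.44 and 5.62 CPM in shRBM10#1, and 5.92 and 6.16 CPM in shRBM10#2. Both shRBM10#2 libraries lay above the shScr range, and the shRBM10#1 libraries lay on either side of it. The log2 FC was 0.03 ± 0.16 (FDR = 0.933) with shRBM10#1 and 0.29 ± 0.15 (FDR = 0.186) with shRBM10#2. IFIH1 encodes MDA5, which recognizes long double-stranded RNA, and was at 2.59 and 3.59 CPM in shScr, 2.17 and 3.09 CPM in shRBM10#1, and 2.85 and 2.58 CPM in shRBM10#2. The IFIH1 values of the conditions overlapped, with log2 FCs of −0.22 ± 0.23 (FDR = 0.570) and −0.18 ± 0.23 (FDR = 0.593). DHX58 encodes LGP2, a regulator of both sensors that lacks their signaling domain, and was at 5.85 and 6.29 CPM in shScr, 6.55 and 8.20 CPM in shRBM10#1, and 6.54 and 6.53 CPM in shRBM10#2. All 4 KD libraries of DHX58 were above the shScr libraries, with log2 FCs of 0.29 ± 0.14 (FDR = 0.203) and 0.11 ± 0.14 (FDR = 0.622). Without shRBM10#1 replicate 1, the log2 FC of DHX58 in shRBM10#1 was 0.43, on the 1 library left.

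Among the enzymes that double-stranded RNA activates, OAS1 and OAS2 were called and EIF2AK2, OAS3 and OASL were not. The OAS enzymes make 2′-5′ oligoadenylates, which switch on the ribonuclease RNase L. OAS2 was nearly silent in control cells, with 1 and 2 counts in shScr, 21 and 39 counts in shRBM10#1, and 10 and 12 counts in shRBM10#2. In CPM these are 0.031 and 0.061, then 0.671 and 1.06, then 0.269 and 0.313. The conditions did not overlap, in the order shScr, shRBM10#2, shRBM10#1. OAS2 passed the filter only through the KD libraries, in which it was the higher. The shScr and shRBM10#2 counts alone were too low to pass, so its calls are not independent of the filter. Of the pooled counts, 60 in shRBM10#1 against 3 in shScr gave a depth-adjusted ratio of 19.2 (exact 95% interval 6.26 to 95.7), and 22 in shRBM10#2 against the same 3 gave 6.36 (1.91 to 33.2), where the intervals cover counting error only. The edgeR test gave a log2 FC of 4.15 ± 0.64 (FDR = 0.00101) with shRBM10#1 and 2.58 ± 0.77 (FDR = 0.027) with shRBM10#2. The call with shRBM10#2 was lost when any 1 of the 4 libraries compared was left out (FDR 0.0845 to 0.149). OAS2 could not be tested under a filter of at least 10 counts in every library. The limma test on log2(TPM + 0.5), a scale that understates changes at this level, gave 0.81 (FDR = 0.00389) and 0.32 (FDR = 0.163). Even at its highest, in shRBM10#1 replicate 2, OAS2 was at 0.50 TPM, compared with 16.5 TPM for OAS1 in the same library. The OAS2 counts were divided among 3 isoforms, and in shRBM10#1 replicate 2 the most used took 26.9 of the 39.

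OAS1 was at 8.96 and 7.99 CPM in shScr, 11.2 and 14.8 CPM in shRBM10#1, and 10.3 and 10.1 CPM in shRBM10#2. All 4 KD libraries were above both shScr libraries. The log2 FC was 0.62 ± 0.14 (FDR = 0.00921) with shRBM10#1 and 0.26 ± 0.14 (FDR = 0.177) with shRBM10#2. Without shRBM10#1 replicate 2 it was 0.40 (FDR = 0.0763), and without shScr replicate 2 it was 0.54 (FDR = 0.0945). The same isoform of 3 carried 54.6% to 67.7% of OAS1 in every library.

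OAS3, the family member most active on long double-stranded RNA, was at 45.7 and 54.9 CPM in shScr, 55.3 and 51.7 CPM in shRBM10#1, and 50.2 and 49.5 CPM in shRBM10#2, with overlapping ranges and log2 FCs of 0.09 ± 0.09 and −0.01 ± 0.09. OASL, a relative without the synthetase activity that acts with RIG-I, was at 1.32 and 1.09 CPM in shScr, 0.639 and 0.923 CPM in shRBM10#1, and 1.32 and 0.679 CPM in shRBM10#2. Both shRBM10#1 libraries were below shScr for OASL, with a log2 FC of −0.61 ± 0.37 (FDR = 0.308). EIF2AK2 encodes the kinase PKR, which halts translation on binding double-stranded RNA. Its level was 84.3 and 99.5 CPM in shScr, 86.1 and 75.6 CPM in shRBM10#1, and 88.3 and 89.1 CPM in shRBM10#2, and its log2 FC was −0.19 ± 0.09 (FDR = 0.176) and −0.05 ± 0.09 (FDR = 0.704).

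Of the transcription factors STAT2, IRF1, IRF7 and IRF9, STAT2 alone was called. STAT2, a subunit of the complex that binds the ISRE, was at 26.2 and 28.5 CPM in shScr, 29.5 and 29.6 CPM in shRBM10#1, and 31.4 and 35.8 CPM in shRBM10#2. All KD libraries were above shScr, with a log2 FC of 0.30 ± 0.08 (FDR = 0.0212) in shRBM10#2 and 0.11 ± 0.09 (FDR = 0.417) in shRBM10#1. The STAT2 call was lost without shScr replicate 1 (FDR = 0.132) or without shRBM10#2 replicate 2 (FDR = 0.276). IRF9, the DNA-binding subunit, shares 93.5% of its exon bases with a read-through gene on the same strand in GENCODE, so its counts are uncertain. Without shRBM10#1 replicate 1, the log2 FC of IRF9 in shRBM10#2 was −0.35 relative to the 1 shRBM10#1 library left.

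**Figure D3:**
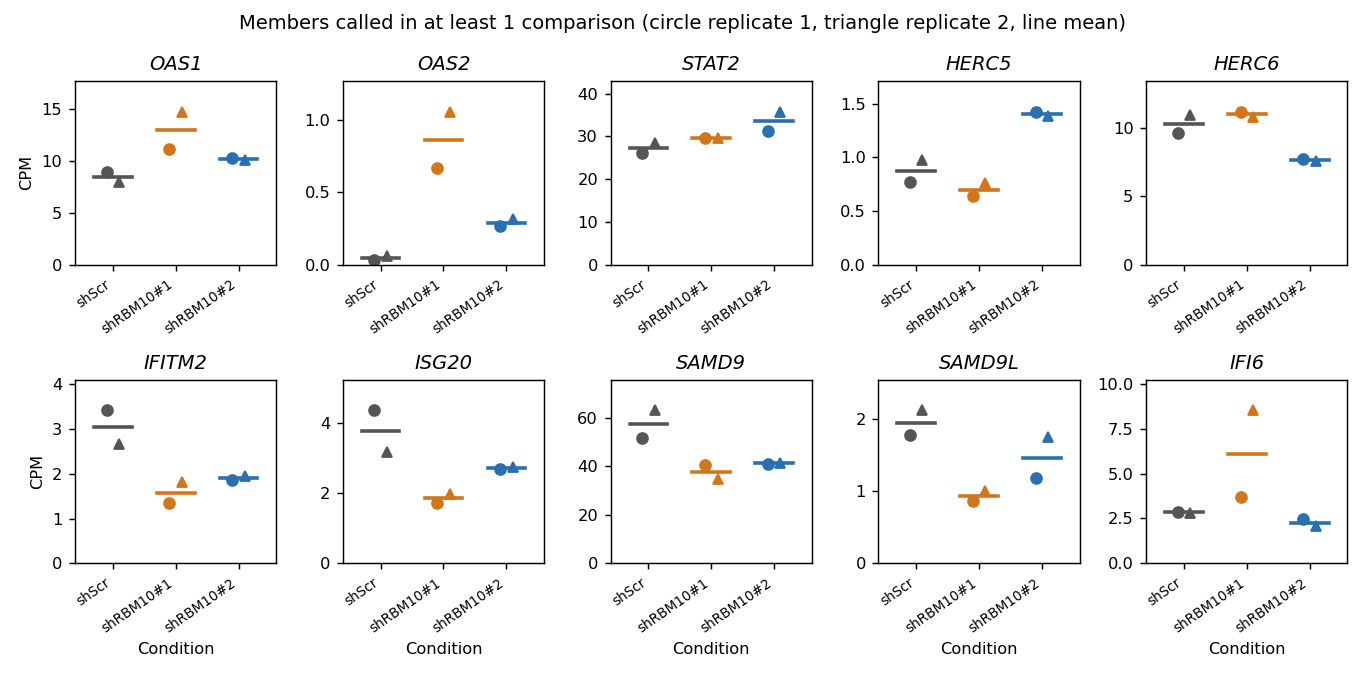
CPM (vertical axes from 0) of the 10 members called in at least 1 of the 3 pairwise comparisons, by condition (circle, replicate 1, triangle, replicate 2, line, mean of 2 libraries). The 4 KD libraries lie above shScr for OAS1, OAS2 and STAT2 and below it for IFITM2, ISG20, SAMD9 and SAMD9L, and IFI6 reaches 8.52 CPM in shRBM10#1 replicate 2 alone.

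No member of the IFIT family, whose proteins bind foreign RNA ends, was called in a comparison of all 6 libraries. The log2 FCs of IFIT1, IFIT2, IFIT3 and IFIT5 ranged from −0.32 to 0.42 in shRBM10#1 and from −0.23 to 0.07 in shRBM10#2. IFIT1, a sensitive early target of both IRF3 and the interferon receptor, was at 1.17 and 1.46 CPM in shScr, 0.863 and 2.61 CPM in shRBM10#1, and 1.48 and 1.18 CPM in shRBM10#2. The shRBM10#1 libraries lay on both sides of the other 4 for IFIT1. Without shRBM10#1 replicate 1, the log2 FC of IFIT1 relative to shScr was 0.99 in the 1 shRBM10#1 library left. The log2 FC of shRBM10#2 relative to that library was −0.97.

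In the ISG15 system, ISG15 itself was at 8.44 and 7.90 CPM in shScr, 5.91 and 7.14 CPM in shRBM10#1, and 8.08 and 8.20 CPM in shRBM10#2, and was called in no comparison of all 6 libraries. Without shRBM10#1 replicate 2, the log2 FC of ISG15 in shRBM10#2 was 0.46 relative to the 1 shRBM10#1 library left. USP18, which removes ISG15 from proteins, was not called either. HERC5 and HERC6 are neighboring genes of 1 family, and HERC5 is the human ligase that attaches ISG15. HERC5 was at 0.770 and 0.972 CPM in shScr, 0.639 and 0.760 CPM in shRBM10#1, and 1.43 and 1.38 CPM in shRBM10#2. The shRBM10#2 libraries were the highest, with a log2 FC of 0.69 ± 0.30 (FDR = 0.108) relative to shScr and 1.00 ± 0.30 (FDR = 0.0302) relative to shRBM10#1, and the latter call was lost when any 1 of the 4 libraries compared was left out (FDR 0.0634 to 0.156). HERC6 was at 9.58 and 10.9 CPM in shScr, 11.2 and 10.8 CPM in shRBM10#1, and 7.67 and 7.60 CPM in shRBM10#2. The shRBM10#2 libraries were here the lowest, with a log2 FC of −0.42 ± 0.11 (FDR = 0.0164) relative to shScr and −0.52 ± 0.11 (FDR = 0.00521) relative to shRBM10#1. Without either shRBM10#2 library both HERC6 calls were lost (FDR 0.103 and 0.124 relative to shScr, 0.0516 and 0.0659 relative to shRBM10#1), and without shScr replicate 2 the call relative to shScr was lost (FDR = 0.109).

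Of the membrane proteins BST2, IFITM1, IFITM2 and IFITM3, which act on virus entry or release, IFITM2 alone was called with all 6 libraries. It was at 3.42 and 2.67 CPM in shScr, 1.34 and 1.82 CPM in shRBM10#1, and 1.86 and 1.96 CPM in shRBM10#2. Every KD library was below both shScr libraries, with a log2 FC of −0.93 ± 0.23 (FDR = 0.0185) in shRBM10#1 and −0.67 ± 0.23 (FDR = 0.0438) in shRBM10#2. The shRBM10#1 call was lost without shScr replicate 1 (FDR = 0.122) or without shRBM10#1 replicate 1 (FDR = 0.0727). The shRBM10#2 call was lost when any 1 of the 4 libraries compared was left out (FDR 0.0528 to 0.259). Without shRBM10#1 replicate 1, the log2 FC of IFITM1 in shRBM10#1 was 0.72 relative to shScr, on the 1 library left. Between the shRNAs the direction of IFITM1 depended on the library kept. The log2 FC of shRBM10#2 relative to shRBM10#1 was −0.59 without replicate 1 of shRBM10#1 and 0.64 without replicate 2. BST2 had a log2 FC of −0.50 ± 0.19 in shRBM10#2 (FDR = 0.074), and was called lower when only the shScr and shRBM10#2 libraries were fitted (−0.51, FDR = 0.0336). Without shRBM10#1 replicate 1, the log2 FC of BST2 in shRBM10#2 was −0.79 relative to the 1 shRBM10#1 library left. The IFITM genes are near copies: 15.7% of the stretches of 50 bases in IFITM2 transcripts, 42.3% in IFITM1 and 20.3% in IFITM3 also occur in other genes, so the division of reads among them is uncertain.

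ISG20, MX1, MX2, SAMD9 and SAMD9L were the 5 tested members grouped here as antiviral effectors. Of these, 3 were called lower with shRBM10#1 and 1 with shRBM10#2, beside the 6.91% and 13.9% of all genes called lower. None of the 5 was called higher, but OAS1, OAS2 and IFI6, called higher with shRBM10#1, were placed in other groups. SAMD9 and SAMD9L are neighboring paralogs that restrict poxviruses and curb cell growth. SAMD9 was at 51.7 and 63.1 CPM in shScr, 40.4 and 34.7 CPM in shRBM10#1, and 41.0 and 41.6 CPM in shRBM10#2. All 4 KD libraries were below both shScr libraries. SAMD9 fell with both shRNAs, by a log2 FC of −0.62 ± 0.10 (FDR = 0.00126) in shRBM10#1 and −0.48 ± 0.10 (FDR = 0.00433) in shRBM10#2. The call was kept in 13 of 13 alternatives in shRBM10#1 and in 12 of 13 in shRBM10#2, and the shRNAs differed by 0.14 ± 0.10 (FDR = 0.327).

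SAMD9L was at 1.79 and 2.13 CPM in shScr, 0.863 and 1.00 CPM in shRBM10#1, and 1.19 and 1.75 CPM in shRBM10#2. The KD libraries were again the lower ones, with a log2 FC of −1.06 ± 0.29 (FDR = 0.0289) in shRBM10#1 and −0.41 ± 0.27 (FDR = 0.290) in shRBM10#2. The shRBM10#1 call was lost with DESeq2, with limma on log2(TPM + 0.5), and when any 1 of the 4 libraries compared was left out. ISG20, an exonuclease that degrades single-stranded RNA, was at 4.37 and 3.19 CPM in shScr, 1.73 and 1.98 CPM in shRBM10#1, and 2.69 and 2.74 CPM in shRBM10#2. The conditions did not overlap for ISG20, with a log2 FC of −1.02 ± 0.21 (FDR = 0.00679) in shRBM10#1 and −0.48 ± 0.20 (FDR = 0.101) in shRBM10#2, and the call was lost without shScr replicate 1 (FDR = 0.0681). MX1 and MX2, the dynamin-like GTPases used as standard interferon readouts, were called in no comparison. PARP9 and PARP14, which modify STAT signaling, were not called either, with log2 FCs between −0.20 and 0.01.

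IFI6, an inhibitor of cell death that resides in the endoplasmic reticulum and mitochondria, had the widest log2 difference between the shRNAs of any tested member but OAS2. It was at 2.86 and 2.83 CPM in shScr, 3.68 and 8.52 CPM in shRBM10#1, and 2.45 and 2.06 CPM in shRBM10#2. Both shRBM10#1 libraries were above shScr, 1 of them far more than the other, and both shRBM10#2 libraries were below. The log2 FC was 1.11 ± 0.30 (FDR = 0.0266) with shRBM10#1 and −0.33 ± 0.33 (FDR = 0.494) with shRBM10#2. It was 0.37 (FDR = 0.360) without shRBM10#1 replicate 2 and 1.58 (FDR = 1e-04) without replicate 1. The call was also lost without shScr replicate 1 (FDR = 0.118) or replicate 2 (FDR = 0.151), where the log2 FC was 1.12 and 1.10. IFI44 was close to the detection limit, with 4 and 3 counts in shScr, 1 and 14 counts in shRBM10#1, and 14 and 5 counts in shRBM10#2, and was not called.

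**Figure D4:**
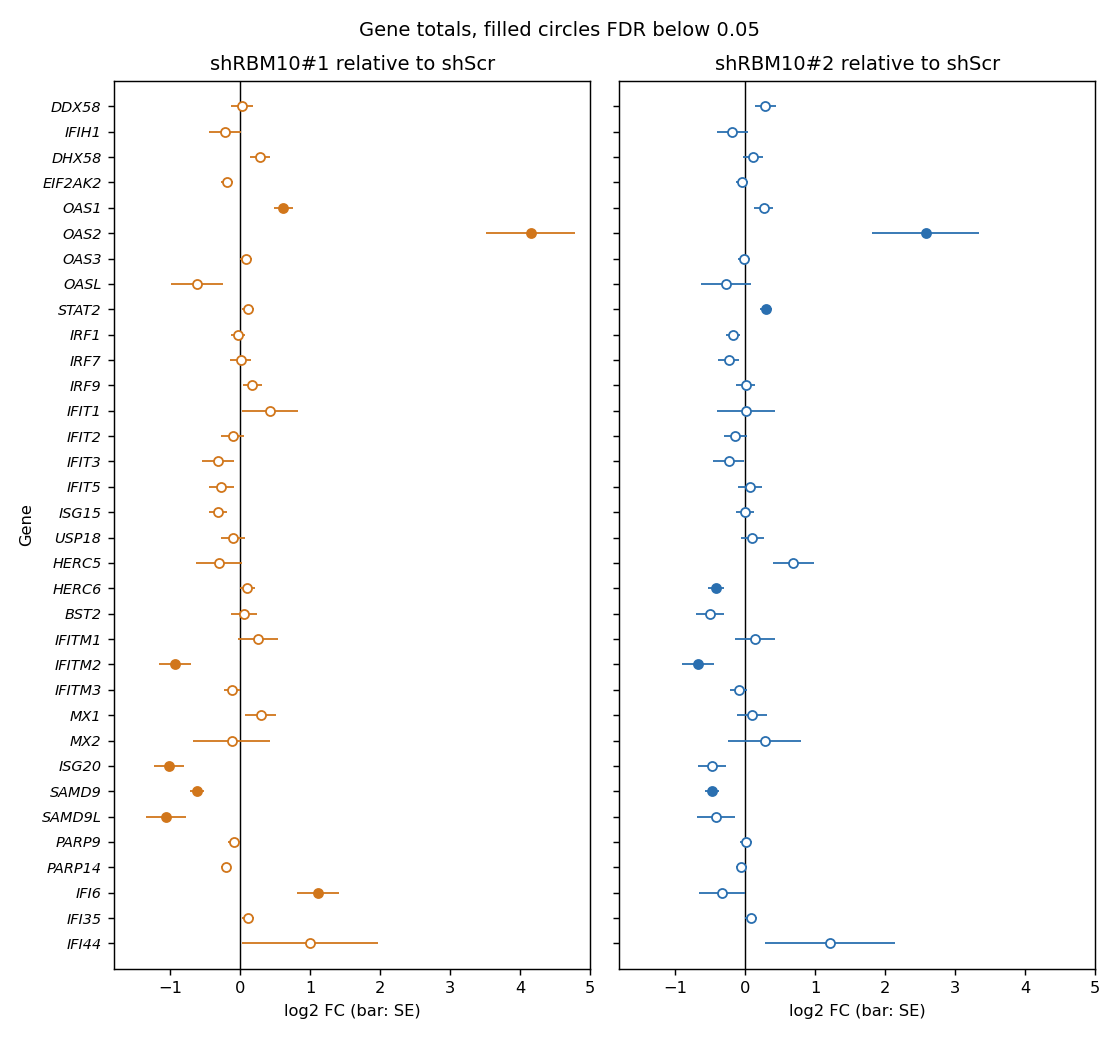
Log2 FC relative to shScr (horizontal axes, bars SE) of the gene totals of the 34 members tested, for shRBM10#1 (left) and shRBM10#2 (right), with filled circles at an FDR below 0.05. Most members lie near 0, OAS2 lies at 4.15 and 2.58, and SAMD9 and IFITM2 are filled below 0 for both shRNAs.

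The comparison of the shRNAs with each other called 4 members (11.8%), compared with 25.5% of all genes. HERC5 was higher in shRBM10#2 (2.94% of members, against 11.0% of all genes), and HERC6, IFI6 and OAS2 were lower (8.82%, against 14.5%). The log2 FC of shRBM10#2 relative to shRBM10#1 was −1.45 ± 0.30 (FDR = 0.00481) for IFI6 (−0.71 without shRBM10#1 replicate 2, FDR = 0.0397) and −1.57 ± 0.44 (FDR = 0.0195) for OAS2, and the OAS2 call was lost without shRBM10#1 replicate 2 (FDR = 0.162) or either shRBM10#2 library (FDR = 0.155 and 0.127). OAS1 was lower in both shRBM10#2 libraries than in both shRBM10#1 libraries, by a log2 FC of −0.35 ± 0.13 that did not pass (FDR = 0.0665). Without shRBM10#1 replicate 1 it was −0.54, relative to the 1 shRBM10#1 library left. With the additional fold criterion, IFI6 and OAS2 were called, compared with 1.19% of all genes. The OAS2 call is again not independent of the filter, which OAS2 passed only through the KD libraries. Both shRBM10#2 libraries were above both shRBM10#1 libraries for 12 members and below for 8, compared with 32.9% and 32.1% of all genes. RBM10 itself was the lower in shRBM10#2, by a log2 FC of −1.11 ± 0.07 (FDR = 3.65e-06). OAS2 and IFI6 were higher with shRBM10#1, the shRNA with the smaller change in RBM10, and any link to the RBM10 level was not tested.

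When both shRNAs were taken as a single KD group of 4 libraries, 230 genes were called (1.62%), and SAMD9 was the only member among them, as 1 of the genes called lower (2.94% of members, 1.08% of all genes). The log2 FC of SAMD9 was −0.54 ± 0.11 (FDR = 0.0474), and the call was kept in 7 of 13 alternatives and lost without shScr replicate 1 (FDR = 0.264), shScr replicate 2 (FDR = 0.495), shRBM10#1 replicate 2 (FDR = 0.0785) or shRBM10#2 replicate 1 (FDR = 0.0608). The log2 FC of OAS2 was 3.55 ± 0.91 (FDR = 0.095), and the log2 FC of RBM10 was −0.99 ± 0.31 (FDR = 0.146).

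The 5 members below the filter were at most 15 counts in any library. IFI27, among the most inducible interferon targets, had 2 and 2 counts in shScr, 2 and 15 counts in shRBM10#1, and 5 and 5 counts in shRBM10#2. Its ratio of shRBM10#1 to shScr was 4.08 (exact 95% interval 1.33 to 16.7), and 15 of the 17 counts came from replicate 2. RSAD2, which encodes the antiviral enzyme viperin, had 0 or 1 count in every library. IFI44L had 0 to 5 counts, XAF1 0 to 7 counts and TRIM22 2 to 10 counts, and a floor of 3 counts corresponds to 0.0799 to 0.0939 CPM. Without shRBM10#1 replicate 1, IFI27 passed the filter only on the 15 counts of replicate 2, the library where it was highest. It was then called higher in shRBM10#1, with a log2 FC of 2.67. That call follows from the filter and from 1 library, and is not read as a result. Between the shRNAs, the ratio of shRBM10#2 to shRBM10#1 was 0.0903 (exact 95% interval 0.00208 to 0.635) for XAF1, on 1 against 10 counts, and 0.282 (0.0808 to 0.806) for TRIM22, on 5 against 16 counts, where the intervals cover counting error only.

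Interferon transcripts themselves were nearly absent. Of 21 ligand genes in the quantification, 15 had no count in any library, IFNB1 and IFNG among them. The highest was IFNE, an epithelial interferon, with 1 and 3 counts in shScr, 2 and 9 counts in shRBM10#1, and 3 and 9 counts in shRBM10#2. IFNL3 had 3 counts in shRBM10#1 replicate 2 and none elsewhere.

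The counts of genes outside the list that follow stand beside 7.13% of all genes called higher and 6.91% called lower in shRBM10#1, and 12.0% and 13.9% in shRBM10#2. Of 15 receptor and signaling genes tested, SOCS3, a feedback inhibitor of cytokine signaling, was called lower with both shRNAs (log2 FC −0.73 and −0.35). IFNAR2 and IFNGR2, subunits of the receptors for type I interferons and interferon gamma, were called higher in shRBM10#2 (0.52 and 0.42), and the other 12 were called with neither shRNA. Of 19 sensing genes outside the list, 2 were called in shRBM10#1, namely TARBP2 (0.31), a partner of Dicer, and MAVS (−0.31), the adaptor of RIG-I and MDA5. In shRBM10#2, 3 were higher (TBK1, RNF135 and PNPT1, at 0.20 to 0.34) and 2 were lower (IKBKE at −0.49 and TRIM25 at −0.35). Of 37 further interferon-stimulated genes tested, 3 were called higher and 6 lower in shRBM10#1, with APOL1 at −0.90. In shRBM10#2, 3 were higher and 12 lower, of which UBE2L6, the conjugating enzyme for ISG15, fell by 1.00 and TNFSF10, the death ligand TRAIL, rose by 1.12 on the log2 scale. The median log2 FC of these 37 was −0.04 in shRBM10#1 and −0.19 in shRBM10#2, compared with 0.01 for all genes.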

How the data were processed

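RNA-seq libraries of PC-9 cells were analyzed, 2 for each of the shScr, shRBM10#1 and shRBM10#2 hairpins, as grouped by the labels. The authors deposited, per isoform, expected counts from RSEM, TPM and the percent of the gene each isoform makes up. The submitters' processing notes name RSEM 1.2.29, STAR 2.4, edgeR and the build hg19. The annotation release and the strand protocol are not given in the sources used here, so sense and antisense reads cannot be told apart.

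Expected counts were summed per symbol and rounded. The edgeR 4.0.16 quasi-likelihood test (R 4.3.3) was run after TMM scaling and filterByExpr by condition (minimum count 10), with 1 coefficient per condition and Benjamini-Hochberg adjustment over all 14217 genes tested. Scripts were tested on simulated data. DESeq2 1.42.0 (Wald test), limma 3.58.1 on log2(TPM + 0.5), other filters, leave-one-out fits and a replicate block served as alternatives. Log2 ratios between libraries used CPM plus 0.05. Shared sequence and exon overlap came from GENCODE 29.

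Values in every library were given for members called in any pairwise comparison, the RNA sensors and the double-stranded RNA enzymes, and the 3 most abundant members. The members and the other gene lists were chosen with earlier results of these data known. IFI27, IFI44, IFIT1 and ISG15 were also given per library, chosen after their values were seen. Deviations of same-numbered replicates from their group means correlated at -0.0638, -0.0363 and -0.043, so the numbers do not pair the libraries. The labels do not say that replicates were separate cultures, so p-values measure only the spread between these libraries. Depth was 31953729 to 37557507 expected counts a library, and with 2 libraries a condition the spread rests on all 6.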

Additional observations from a re-analysis of the deposited data

Results flagged for a closer look

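The following members responded differently to the shRNAs by the tested contrast of shRBM10#2 minus shRBM10#1 (edgeR's quasi-likelihood F test, Benjamini-Hochberg adjusted). IFI6 differed by −1.45 on the log2 scale, with both shRBM10#2 libraries below both shRBM10#1 libraries, and it was −0.71 without shRBM10#1 replicate 2 (FDR = 0.0397) and lost its call without shRBM10#2 replicate 2 (FDR = 0.0548). OAS2 differed by −1.57, on counts of 21 and 39 against 10 and 12. HERC5 differed by 1.00, on counts of 20 and 28 against 53 and 53. HERC6 differed by −0.52, with the libraries of the shRNAs not overlapping. The call was kept in 12 of 13 alternatives for IFI6, 8 of 11 for OAS2, 7 of 12 for HERC5 and 10 of 13 for HERC6. HERC5 lost its call when any 1 of the 4 libraries compared was left out. OAS2 passed the low-count filter only through the KD libraries.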

How the results depend on the processing

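Of the members' calls made with all 6 libraries, none changed direction in any alternative. With shRBM10#1, SAMD9 was called in every alternative but the added criterion on the log2 FC. OAS2 was not tested with at least 10 counts in every library. It was also not tested for shRBM10#2 against shScr when only the libraries compared were used. DESeq2 gave no adjusted p for OAS2 with shRBM10#2. Leaving out each library in turn gave 985 to 2626 genes and 3 to 9 members for shRBM10#1 against shScr, 954 to 4566 genes and 1 to 6 members for shRBM10#2 against shScr, 918 to 3736 genes and 0 to 8 members between the shRNAs, and 0 to 413 genes and 0 to 1 member for the single KD group. An absolute log2 FC above 1 as an added criterion left 267 genes (1.88%) and 4 members in shRBM10#1 and 185 genes (1.30%) and 1 member in shRBM10#2. It left 169 genes (1.19%) and 2 members between the shRNAs and 56 genes (0.39%) and 0 members in the single KD group. The limma test on log2(TPM + 0.5) called 972 genes (6.84%) and 5 members in shRBM10#1 and 1700 genes (12.0%) and 1 member in shRBM10#2. It called 1312 genes (9.23%) and 2 members between the shRNAs and 130 genes (0.91%) and 0 members in the single KD group. The limma test lost IFI6 and SAMD9L in shRBM10#1 and HERC6, OAS2, SAMD9 and STAT2 in shRBM10#2. It also lost HERC5 and HERC6 between the shRNAs and SAMD9 in the single KD group. DESeq2 called 3142 genes (22.1%) and 3 members in shRBM10#2, 3145 genes (22.1%) and 2 members between the shRNAs, and 718 genes (5.05%) and 2 members in the single KD group. It lost SAMD9L in shRBM10#1 and IFITM2 in shRBM10#2. Without a filter on low counts, 4114 of 19208 genes (21.4%) and 7 members were called between the shRNAs. The mean of the shRNA coefficients in place of the single KD group called 2610 genes (18.4%) and 6 members and gave a log2 FC of −1.10 for RBM10 (FDR = 3.14e-07). The cause of these changes was not tested.

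The replicate number as a block, which has no support from the pairing check, called 1755 genes (12.3%) and 7 members in shRBM10#1 and 3209 genes (22.6%) and 4 members in shRBM10#2. It called 3175 genes (22.3%) and 4 members between the shRNAs and 52 genes (0.37%) and 0 members in the single KD group. It lost IFITM2 in shRBM10#2 (log2 FC −0.67) and SAMD9 in the single KD group (−0.54). With 2 libraries a condition, genes below about 10 counts a library were at the limit of the test.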
